A study of Arabidopsis thaliana with 12 samples.

Results

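Transcripts encoded by the mitochondrial genome of Arabidopsis thaliana were followed in dark-grown and illuminated seedlings of the wild type and of a line that overexpresses a microRNA. They were taken as every gene identifier that begins with ATMG in any of the 6 pairwise tables deposited by the authors, which gave 60 genes of the 11417 listed in any table. The study compared Col-0, the wild-type accession, with 35S:miR396a, in which miR396a is driven by the strong 35S promoter of a plant virus. Seedlings of both genotypes grew for 4 days in the dark on medium with 1% sucrose, and were then either left in the dark or given light for 3 h. The 4 groups are therefore Col-0 dark, Col-0 light, 35S:miR396a dark and 35S:miR396a light, each with 3 libraries that the labels call biological replicates, 12 in all. All groups share the Columbia background, the dark growth and the sucrose, and the labels do not say how many transgenic lines stand behind 35S:miR396a.

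The deposited tables hold only the mean of each group, in FPKM (fragments mapped to a transcript, scaled to its length and to the depth of the library), and only for genes that the authors called at a 2-fold change or more with a q-value below 0.001. No value of a single library was used, so no spread between replicates can be given and every value below is a group mean. The p- and q-values quoted from the authors' deposited tables follow from the summed reads of each group's 3 libraries, so they carry counting error only and do not measure variation between seedling batches. A gene enters the set of 60 because at least 1 table called it, so the counts below describe called genes and not all mitochondrial genes. The estimated depth was 114 to 126 M fragments per group. Per the labels the tissue is hypocotyl, while their growth protocol speaks of seedlings. Of 7 root marker genes 4 were listed in some table, and 2 of these in a light comparison. RHD6, a root hair regulator, had 1.33 FPKM in Col-0 dark and 0.663 in Col-0 light, and PYK10, a beta-glucosidase abundant in roots, had 3007 FPKM in 35S:miR396a dark and 6636 in 35S:miR396a light. Between the genotypes, 0 root markers were listed in the dark or in the light, against 19.3% and 61.3% of all genes. The other 2, EXPA7 and SHV2, were listed only as higher in 35S:miR396a light than in Col-0 dark, against 23.6% of all genes. EXPA7 had 2.02 FPKM in Col-0 dark and 4.29 in 35S:miR396a light, and SHV2 had 0.730 and 1.54. Of 5 shoot apex markers 4 were listed in some table. Of these 4, 3 were listed higher in 35S:miR396a in the dark and 0 lower, against 8.74% and 10.6% of all genes. In the light 1 was listed higher, against 35.5% of all genes. CUC1 and CUC2, regulators of organ boundaries, were higher with light in Col-0, at 0.436 and 0.916 FPKM and at 0.186 and 0.476 FPKM. In 35S:miR396a dark they had 0.906 and 0.693 FPKM. CLV3, a stem-cell peptide gene of the shoot meristem, had 0.336 FPKM in Col-0 dark, 0.316 in Col-0 light, 0.946 in 35S:miR396a dark and 0.883 in 35S:miR396a light. The part of other organs in the results below was not tested.

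Plant mitochondria keep a genome of their own, which encodes a few core subunits of the respiratory chain complexes and the ATP synthase, proteins that attach haem to cytochrome c, some ribosomal proteins, and many open reading frames of unknown role. The remaining subunits of the same complexes come from the nucleus, so each complex is built from both genomes. Mitochondrial transcripts in plants are edited and spliced, and poly(A) tails in this organelle mark RNA for decay. The labels do not say how messenger RNA was selected for these libraries. In Col-0, a large piece of the mitochondrial genome also sits in chromosome 2, near the centromere.

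In the RefSeq TAIR10.1 sequence, this insertion spanned chr2:3239038-3509765, or 270.7 kb, and its aligned stretches covered 72.2% of the 367808 bases of the mitochondrial genome at 99.91% identity. The reference annotation tied 21 of the 60 identifiers to a named copy in the nucleus, and those notes also gave the only names used here. The other 39 are given by identifier alone and called unnamed, since no annotation of theirs was used here. They may include further genes of the functions named below, so counts by function cover the named members only. The following 60-base stretches are shown because they set out how far a read can tell a mitochondrial gene from its nuclear copy. For rpl5 and rps4, which encode ribosomal proteins, and for atp8, a subunit of the membrane part of the ATP synthase, the first 60 coding bases were the same in both genomes. The rpl5 stretch lies at chrM:185260-185319 on the minus strand and at chr2:3448402-3448461 on the plus strand, the rps4 stretch at chrM:159980-160039 on the plus strand and at chr2:3473633-3473692 on the minus strand. The atp8 stretch lies at chrM:247433-247492 on the minus strand and at chr2:3386292-3386351 on the plus strand. The ORF262 stretches, at chrM:270362-270421 and chr2:3251257-3251316, both on the minus strand, start at coding base 230, and the capital in each marks the only base at which these stretches differ.
rpl5, both genomes: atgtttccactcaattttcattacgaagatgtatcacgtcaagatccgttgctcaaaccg
rps4, both genomes: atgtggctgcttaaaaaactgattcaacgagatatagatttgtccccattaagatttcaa
atp8, both genomes: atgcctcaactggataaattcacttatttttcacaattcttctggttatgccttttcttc
ORF262, mitochondrion: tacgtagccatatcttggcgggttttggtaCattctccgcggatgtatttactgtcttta
ORF262, chromosome 2: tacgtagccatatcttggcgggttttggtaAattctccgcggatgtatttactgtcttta

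Over their whole coding parts, rpl5 (558 bases), rps4 (1089 bases), atp8 (477 bases), rps12 (378 bases), nad3 (357 bases), atp1 (1524 bases) and cox3 (798 bases) had 0 bases that differed between the mitochondrial genome and the chromosome 2 copy. A read without an edited base that lies inside one of these 7 coding parts can therefore not be assigned to either genome by its sequence. Edited bases were not examined here. ORF262 differed at 2 of 789 bases, and a read over such a base can be assigned. The values of members alone come first below, and those of their copies and of both together follow.

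The mitochondrion-encoded transcripts had low levels in Col-0, and 35S:miR396a was above it, most of all in the light. Of the 60 genes, 46 had a value in all 4 groups. Their median level was 0.279 FPKM in Col-0 dark, 0.218 in Col-0 light, 0.583 in 35S:miR396a dark and 1.52 in 35S:miR396a light. The number at or above 1 FPKM was 7 in Col-0 dark, 5 in Col-0 light, 16 in 35S:miR396a dark and 34 in 35S:miR396a light. The level was highest in 35S:miR396a light for 44 of these 46 genes, and lowest in Col-0 light for 33. For 41 of 46 (89.1%), the order was 35S:miR396a light above 35S:miR396a dark above both Col-0 groups, an order that 12.7% of all 6223 genes with 4 values had. In bulk RNA, more mitochondria or more cells rich in them cannot be told apart from more RNA per mitochondrion.

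**Figure D1:**
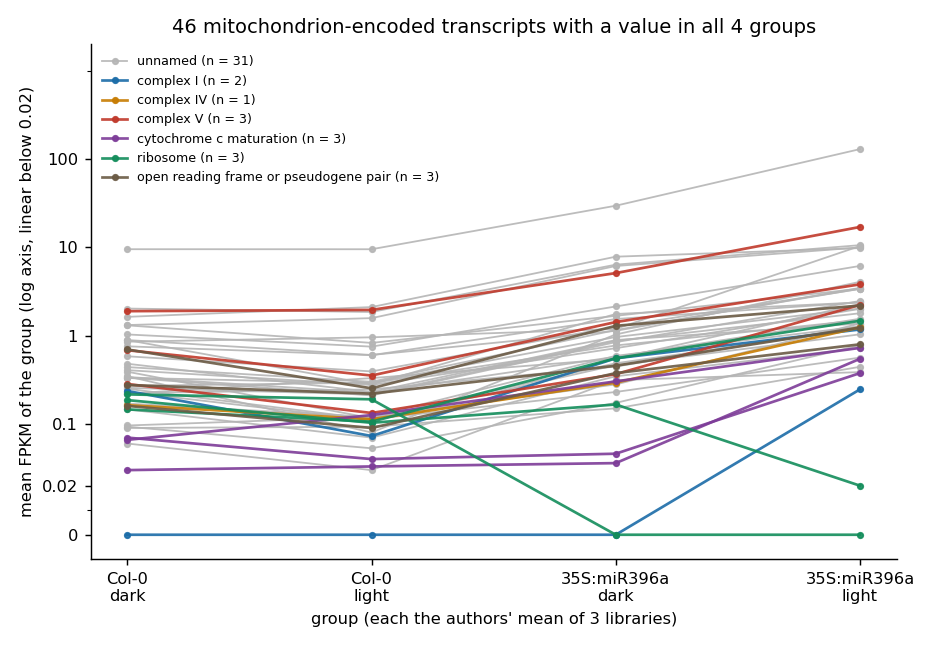
Mean FPKM (log axis, linear below 0.02) of the 46 mitochondrion-encoded transcripts with a value in all 4 groups; each line is a gene, coloured by function, and each point the authors' mean of 3 libraries. Most lines are lowest in Col-0 light and end highest in 35S:miR396a light, where the median was 1.52 FPKM. The ribosomal protein genes rpl5 and rps4 run the other way.

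A single transcript held much of the total. ATMG00030, an unnamed gene, had 9.50 FPKM in Col-0 dark, 9.50 in Col-0 light, 29.5 in 35S:miR396a dark and 129.1 in 35S:miR396a light. In the last group this was 50.6% of the summed level of the 46 genes. Without it, the summed level was 21.6, 17.2, 53.8 and 126 FPKM in the same order of groups. The next highest unnamed genes were ATMG00090, ATMG00080, ATMG00070 and ATMG00160. ATMG00090 had 1.63, 2.10, 7.82 and 9.79 FPKM, and ATMG00080 had 2.02, 1.85, 6.35 and 10.6 FPKM. ATMG00070 had 1.32, 1.58, 6.13 and 9.96 FPKM, and none of these 3 was listed for light in 35S:miR396a. ATMG00160 had 0.853, 0.956, 1.19 and 10.3 FPKM, so its 3 other groups lay close together.

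Reads behind these levels were few. Pooled reads recovered from the deposited folds and p-values had a median per member of 19.0 in Col-0 dark, 9.8 in Col-0 light, 48.9 in 35S:miR396a dark and 86.5 in 35S:miR396a light. Under 30 reads were found for 34 of the 51 members with a recovered value in Col-0 dark, and for 42 of 58 in Col-0 light. In 35S:miR396a dark 20 of 48 members had under 30 reads, and in 35S:miR396a light 17 of 58. ATMG00516, for example, had 10.1 reads in Col-0 dark and 2.6 in Col-0 light, and was not listed for light in Col-0.

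The first comparison asked what 3 h of light changed in the wild type. In Col-0, 4 of 60 members were listed, all of them lower in the light, against 43.1% of all 11417 listed genes (17% higher and 26.1% lower). The median log2 ratio of FPKM + 1 over the 49 members with both values was -0.06, and over all genes it was -0.11. With 0.1 added in place of 1, these medians were -0.30 and -0.27, so their order depends on the value added. The members listed were nad2, ORF262, ATMG01170 and ATMG01370. For nad2 (ATMG01320), part of the transcript of a proton-pumping subunit of complex I, the mean went from 0.236 to 0.073 FPKM. The authors' deposited table gives -1.75 as its log2 fold (DEGseq q = 0.000631, p = 0.00193). ORF262 (ATMG01090), which the reference describes as ATP synthase 9, went from 0.696 to 0.253 FPKM, with -1.41 as the log2 fold in the authors' deposited table. ATMG01170 went from 0.480 to 0.230 FPKM and ATMG01370 from 0.890 to 0.280 FPKM. These members had 23.6, 59.2, 73.4 and 27.0 pooled reads in Col-0 dark. Over the 49 members, called or not, the log2 ratio was below 0 for 35 and above 0 for 12, and over all 7778 genes with both values it was below 0 for 4521 and above 0 for 3182. Of the 3 unnamed genes of at least 1 FPKM with the largest ratios, ATMG00660 went from 1.31 to 0.826 FPKM and ATMG00510 from 1.03 to 0.750 FPKM, while ATMG00090 went from 1.63 to 2.10 FPKM. None of these 3 was listed in this comparison.

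In 35S:miR396a, nearly all members listed for light were higher in the light. Here 33 of 60 members were listed, 32 higher and 1 lower, against 43.7% of all genes (20.6% higher and 23.1% lower). The median log2 ratio over 47 members was 0.60 and over all genes -0.05. The 3 members named as ATP synthase genes, atp1, atp6 and atp8, all rose. The transcript of atp1 (ATMG01190), which encodes the alpha subunit of the catalytic head, went from 5.10 to 17.0 FPKM, and the authors' deposited table gives 1.74 as its log2 fold. The transcript of atp6 (ATMG00410), a subunit of the proton channel, went from 1.42 to 3.80 FPKM and that of atp8 (ATMG00480) from 0.366 to 2.23 FPKM. The complex IV gene cox3 (ATMG00730), a core subunit of cytochrome c oxidase, went from 0.293 to 1.24 FPKM. In complex I, nad2 went from 0.553 to 1.17 FPKM, while nad3 (ATMG00990) was listed at 0 in the dark and had 0.246 FPKM, or 9.0 reads, in the light, while its identical copy AT2G07751 had 0.763 FPKM in that group. The folds the authors give for a gene listed at 0 replace that 0 by 0.5 read, so none is printed here.

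The named cytochrome c maturation genes were also listed higher with light in 35S:miR396a. The transcript of ccmFC (ATMG00180), part of the haem ligase, went from 0.036 to 0.546 FPKM and its log2 fold was 3.89 by the authors' deposited table, on 5.9 and 93.0 reads. These were 0.509% and 5.56% of the reads of the member and its copy, whose sum changed 1.35-fold (exact 95% interval 1.25 to 1.45, counting error only), under the 2-fold of the call. That of ccmFN2 (ATMG00960), another part of the ligase, went from 0.303 to 0.726 FPKM, and that of ccmC (ATMG00900), which passes haem to the assembly chaperone, from 0.046 to 0.376 FPKM. Of the ribosomal protein genes, rpl2 (ATMG00560) was listed higher, at 0.553 and 1.47 FPKM, while its sum with the copy changed 1.30-fold (1.14 to 1.49). The gene rps4 (ATMG00290) was the only member listed lower, at 0.166 and 0.020 FPKM. Among the unnamed genes 20 of 39 were listed, all higher. Of those with at least 1 FPKM in the light, the largest ratios were those of ATMG00160, ATMG00270 and ATMG00030, for which the authors' deposited table gives log2 folds of 3.12, 2.30 and 2.14. Only nad2 was listed in both light comparisons, with a fall in Col-0 and a rise in 35S:miR396a. The difference between the 2 genotypes' light responses was not tested, since that needs values of single libraries.

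**Figure D2:**
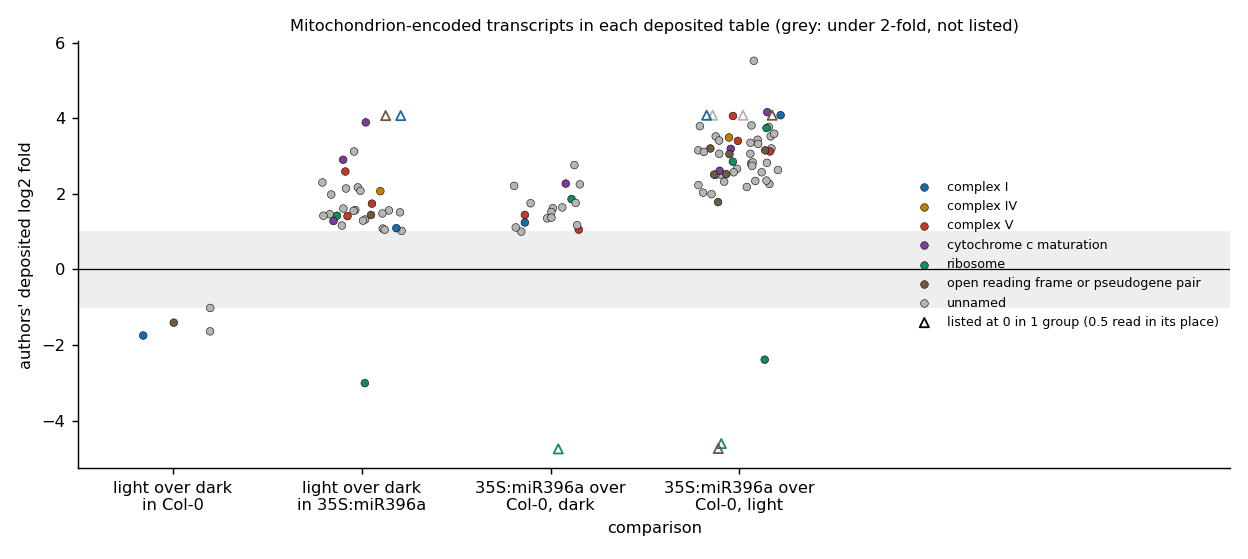
The authors' deposited log2 fold of each listed member in the 4 main comparisons, coloured by function; the grey band marks changes under 2-fold, which the tables leave out, and open triangles mark genes at 0 in 1 group. In Col-0 the 4 listed members lie below 0, while 32 of 33 lie above 0 for light in 35S:miR396a and 54 of 57 for genotype in the light.

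Between the genotypes in the dark, 19 of 60 members were listed, 18 higher and 1 lower in 35S:miR396a, against 19.3% of all genes (8.74% higher and 10.6% lower). The median log2 ratio was 0.30 over 46 members and -0.02 over all genes. Of the named genes, atp1 rose from 1.89 to 5.10 FPKM, atp6 from 0.683 to 1.42, nad2 from 0.236 to 0.553, ccmFN2 from 0.066 to 0.303 and rpl2 from 0.146 to 0.553. The transcript of rpl5 (ATMG00210) was listed at 0.216 FPKM in Col-0 and at 0 in 35S:miR396a. The other named members were not listed, and cox3, for instance, had 0.163 and 0.293 FPKM. Of the unnamed genes 13 of 39 were listed, all higher, led by ratio among those of at least 1 FPKM by ATMG00090, ATMG00070 and ATMG00080. By the authors' deposited table, their log2 folds were 2.25, 2.21 and 1.64.

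In the light, 57 of 60 members were listed between the genotypes, 54 higher and 3 lower in 35S:miR396a, against 61.3% of all genes (35.5% higher and 25.9% lower). The median log2 ratio was 0.97 over 57 members and 0.19 over all genes. The 3 members not listed here, ATMG00010, ATMG00110 and ATMG00300, were called only in a table that crosses genotype and light. At a 4-fold change or more, 55 members were listed, against 20.8% of all genes. The same threshold left 0 members for light in Col-0 (14.7% of all genes), 12 for light in 35S:miR396a (15.5%) and 5 for genotype in the dark (6.25%). The 3 named ATP synthase genes were higher. For atp1 the levels were 1.95 and 17.0 FPKM (log2 fold 3.12 in the authors' deposited table). For atp6 they were 0.353 and 3.80 FPKM (3.40), and for atp8 0.133 and 2.23 FPKM (4.06). Both named complex I members and the named complex IV member were higher. The levels were 0.073 and 1.17 FPKM for nad2, 0 and 0.246 FPKM for nad3, and 0.113 and 1.24 FPKM for cox3. The cytochrome c maturation genes ccmFC, ccmFN2 and ccmC were at 0.033, 0.126 and 0.040 FPKM in Col-0 light and at 0.546, 0.726 and 0.376 FPKM in 35S:miR396a light. For ccmFC the ratio was 16.5 for the member alone and 4.39 for the reads of member and copy together.

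The named ribosomal protein genes split in this comparison. The transcript of rpl2 was at 0.106 FPKM in Col-0 and 1.47 in 35S:miR396a, a ratio of 13.9 against 3.02 for member and copy together, and that of rps12 (ATMG00980) at 0.093 and 0.683 FPKM. The transcript of rpl5 was at 0.190 FPKM in Col-0 and listed at 0 in 35S:miR396a. That of rps4 was at 0.103 and 0.020 FPKM. For rps4 the authors' deposited table gives -2.39 as the log2 fold (DEGseq q = 0.000788, p = 0.00349). The third member listed lower was ATMG00590 (ORF313), described in the reference as a cytochrome b/b6 protein, at 0.116 FPKM in Col-0 and listed at 0 in 35S:miR396a. Of the 8 open reading frames or pseudogene pairs 7 were higher, and of the 39 unnamed genes 36 were higher and 0 lower. The largest ratios among unnamed genes of at least 1 FPKM were those of ATMG00516 (0.080 and 4.06 FPKM, on 2.6 and 126.5 reads), ATMG00030, and ATMG00520 (0.210 and 2.46 FPKM). This comparison and that of light in 35S:miR396a share the illuminated 35S:miR396a group.

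The 3 members that were lower in 35S:miR396a in the light each have a copy in chromosome 2, at 100% identity, that was listed higher there. The copy of rpl5, AT2G07725, had 1.503 FPKM in Col-0 dark, 0.740 in Col-0 light, 3.93 in 35S:miR396a dark and 7.84 in 35S:miR396a light. The copy of rps4, AT2G07734, had 0.456, 0.293, 1.66 and 3.30 FPKM in the same order, and the copy of ORF313, AT2G07718, had 0.450, 0.340, 0.870 and 1.57 FPKM. Of the 16 pairs with both genes in the tables, the genotype comparison in the light listed both genes higher for 13, and the member lower with the copy higher for 3. Among the higher pairs, the copy of atp1, AT2G07698, had 1.47, 1.08, 3.35 and 12.3 FPKM, and that of cox3, AT2G07687, had 0.143, 0.190, 0.193 and 1.70 FPKM. The copy of nad2, AT2G07689, had 0.040, 0.030, 0.043 and 0.563 FPKM. The copy of nad3, a gene itself listed at 0 in both Col-0 groups, had 0.270 FPKM in Col-0 dark and 0.260 in Col-0 light. For atp8, rps12 and ccmC, the member and the copy had the same FPKM to 3 decimals in every group with both values, as in 35S:miR396a light, where both genes of the atp8 pair had 2.23 FPKM.

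The recovered reads of a member and its copy often added up to a whole number where at least 1 of them was not whole. For rps4 the member and the copy had 23.9 and 71.2 reads in Col-0 dark, 13.8 and 46.3 in Col-0 light, 21.0 and 268.1 in 35S:miR396a dark, and 2.8 and 575.2 in 35S:miR396a light. The member's part of the pair thus went from 25.1% and 23% in Col-0 to 7.26% and 0.484% in 35S:miR396a. For rpl5 it was 9.92% of the pair's reads in Col-0 dark, 15.4% in Col-0 light and 0% in both 35S:miR396a groups. Of 47 values in which the reads of the pair were not both whole, the sum was whole within 0.1 read in 29. The parts were held to a narrower 0.05 read. Some of the 29 thus have parts that are also whole within 0.1, as for rps4 in 35S:miR396a dark. How many sums would be whole by rounding alone was not computed. All reads were whole within 0.05 for 30 of the 60 members, 25 of them unnamed, and the 3 members listed lower in 35S:miR396a were not among these.

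**Figure D3:**
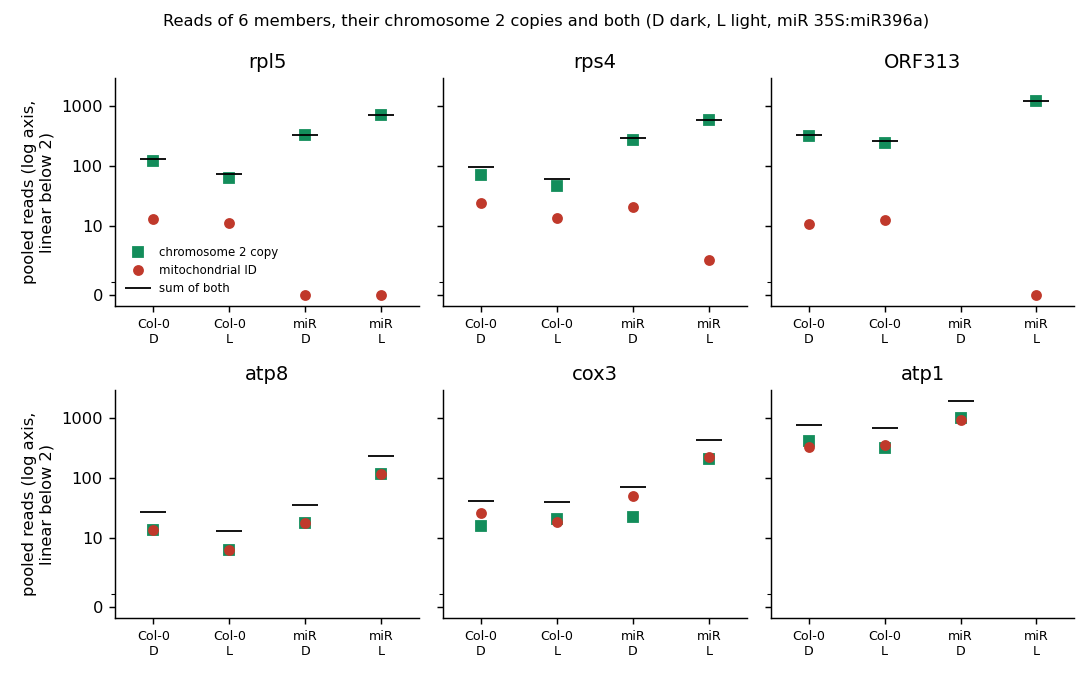
Pooled reads (log axis, linear below 2) of 6 members, their chromosome 2 copies and the sum of both in each group, without markers where the reads of both could not be recovered. For rpl5, rps4 and ORF313 the sum follows the copy and is highest in 35S:miR396a light, while the member falls; for atp8 member and copy have the same reads.

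Summed over member and copy, all 15 pairs with sums in both illuminated groups were higher in 35S:miR396a. The copy of each was already listed higher in this comparison, so the direction of these sums was largely fixed by that call. The rpl5 pair had 132, 74, 324 and 695 reads in Col-0 dark, Col-0 light, 35S:miR396a dark and 35S:miR396a light. Per depth, 35S:miR396a light was 8.80 times Col-0 light (exact 95% interval 6.92 to 11.3, counting error only). The rps4 pair had 95, 60, 289 and 578 reads, and its ratio in the light was 9.03 (6.91 to 12.0). The ORF313 pair had 257 and 1194 reads in the light, with a ratio of 4.35 (3.80 to 5). Over these 15 pairs the ratio ran from 3.02 for rpl2 to 18 for nad2, with a median of 7.25. The pairs are not all alike in extent, since 294 of the 840 coding bases of the ccmFC copy, and 246 of the 936 of the ORF113 copy, aligned to the mitochondrial genome in 1 stretch. In the dark the genotype ratio of 11 pairs ran from 0.726 to 3.69 with a median of 2.21, and 7 of them were at 2-fold or more. The lowest was the ccmC pair, whose interval ran from 0.270 to 1.88.

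The light response was also computed from the pair sums. In Col-0 the ratio of light over dark ran from 0.333 to 0.963 over 14 pairs, with a median of 0.625, and 6 of the 14 intervals included 1. The ORF262 pair, whose member was listed lower, had a ratio of 0.504 (0.379 to 0.664). In 35S:miR396a the ratio ran from 1.30 to 7.05 over 11 pairs, with a median of 2.01, and 0 intervals included 1. The atp1 pair, the one with most reads in Col-0 dark, had 741 and 669 reads in Col-0, a ratio of 0.870 (0.782 to 0.967), where the FPKM of atp1 alone had a ratio of 1.03. The nad2 pair, the lowest in Col-0, had 26 and 9 reads there, a ratio of 0.333 (0.137 to 0.734), and 61 and 173 reads in 35S:miR396a, a ratio of 2.65 (1.97 to 3.60). The cox3 pair had 42 and 40 reads in Col-0, a ratio of 0.918 (0.580 to 1.45), and 72 and 429 reads in 35S:miR396a, a ratio of 5.56 (4.32 to 7.24). The atp8 pair had 27 and 13 reads in Col-0, a ratio of 0.464 (0.220 to 0.930), and 36 and 232 in 35S:miR396a, a ratio of 6.01 (4.22 to 8.80).

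**Figure D4:**
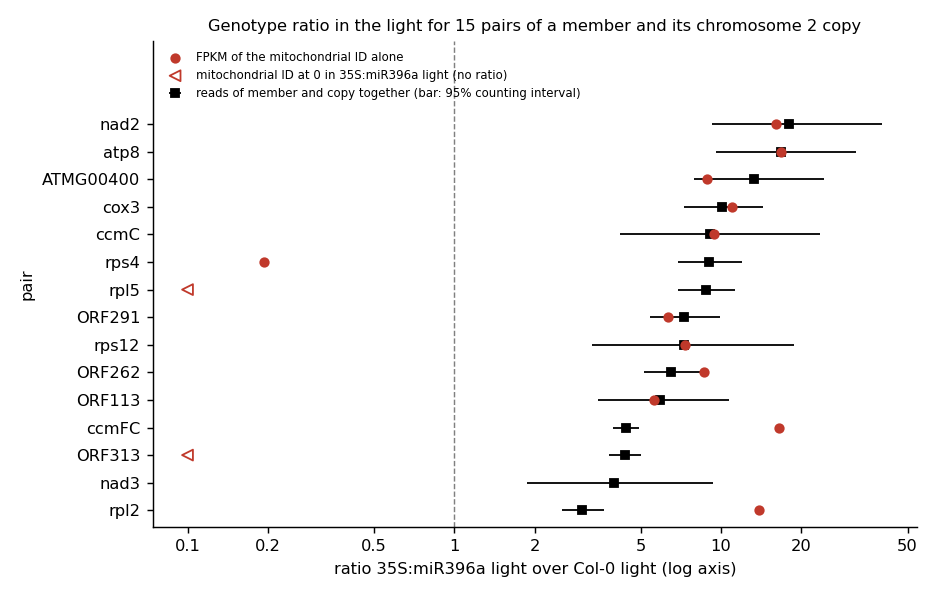
Ratio of 35S:miR396a light over Col-0 light (log axis) for 15 pairs, from the reads of member and copy together (squares, bars the exact 95% counting interval) and from the FPKM of the mitochondrial identifier alone (red points; nad3, at 0 in Col-0 light, has none). All 15 squares lie above 1, from 3.02 to 18, while rps4 alone lies below 1 and rpl5 and ORF313 were listed at 0 in 35S:miR396a light. The copy of each pair was itself listed higher in this comparison.

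Nuclear copies of other mitochondrial genes were also listed. The reference notes name 53 mitochondrial identifiers, of which 21 are members and 32 were listed in no comparison. Of the copies of these 32, 20 were listed. The copy that the reference pairs with cob, the cytochrome b of complex III, is AT2G07727, and it had 0.663 FPKM in Col-0 dark, 0.713 in Col-0 light, 3.33 in 35S:miR396a dark and 9.22 in 35S:miR396a light. The copy of atp9, the ring subunit of the ATP synthase, is AT2G07671, and it had 1.84, 0.790, 2.43 and 6.58 FPKM. Of these 20 copies, 8 were listed higher in 35S:miR396a in the dark, against 8.74% of all genes. In the light 19 were, against 35.5% of all genes, and 0 were listed lower in either. The set of 60 is thus not a full account of the transcripts that arise from mitochondrial sequence.

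Genes of the chromosome 2 insertion share reads with members, so their counts are not independent of those above. Of the 57 such genes in the tables, 5 (8.77%) were listed lower with light in Col-0, against 26.1% of all genes. Higher with light in 35S:miR396a were 25 (43.9%, against 20.6%), and higher in 35S:miR396a were 16 in the dark (28.1%, against 8.74%) and 53 in the light (93%, against 35.5%). None was listed in the other direction in these 4 comparisons. The chloroplast genome gave other counts. Of its 66 genes in the tables, 18 (27.3%) were listed higher with light in Col-0, against 17% of all genes, and 0 lower. For light in 35S:miR396a, 1 was listed higher and 10 (15.2%) lower, against 23.1% of all genes lower. The genotype comparison listed 62 (93.9%) higher in dark seedlings, against 8.74%, and 25 (37.9%) in illuminated ones, against 35.5%. The median over the 46 chloroplast genes with 4 values was 1.25, 2.46, 5.57 and 4.55 FPKM in Col-0 dark, Col-0 light, 35S:miR396a dark and 35S:miR396a light. Both organelle genomes were thus above Col-0 in both 35S:miR396a groups by these medians, and their difference from each other was not tested.

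Nuclear genes for the same respiratory complexes were compared from a list of 34, of which 13 were in any table. The background holds only genes in a table, so the counts are set against these 13, each of which at least 1 comparison called. In the light 12 of the 13 were listed higher in 35S:miR396a and 0 lower, against 35.5% and 25.9% of all genes. Of the 13, AT5G11770, SDH2-2, AT5G13430, CYTC-1, AT1G80230, COX10 and AT5G08680 were called in no other comparison. They count among the 13 only through that call, so the shares in the light and in the dark are partly fixed by it. In the dark 0 were listed, where 8.74% of all genes were higher and 10.6% lower. Light in 35S:miR396a listed 5 of the 13 higher, against 20.6% of all genes. Light in Col-0 listed 1 of the 13 lower, against 26.1%. Of the 13 genes with any value, those named by the size of their ratio include CYTC-2, a cytochrome c gene, with 25.3, 20.2, 14.1 and 91.8 FPKM in Col-0 dark, Col-0 light, 35S:miR396a dark and 35S:miR396a light. SDH2-1, the iron-sulfur subunit of complex II, had 34.4, 37.4, 33.9 and 107.7 FPKM. COX17, a copper chaperone for cytochrome c oxidase, had 5.36, 8.97, 6.92 and 22.7 FPKM. CYTC-1, another cytochrome c gene, had 127 FPKM in Col-0 light and 325 in 35S:miR396a light. GAMMA CAL2, a carbonic anhydrase-like subunit of complex I, was the gene listed lower with light in Col-0, at 76.8 and 35.7 FPKM.

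Nuclear genes that act on mitochondrial RNA were fewer in the tables, 7 of 15. In the light 1 of these 7 was listed higher in 35S:miR396a and 1 lower, against 35.5% and 25.9% of all genes. Between 35S:miR396a light and Col-0 dark, which crosses genotype and light, 6 of the 7 were listed higher and 1 lower, against 23.6% and 25.5%. AT5G15700, PMH1, PMH2 and BIR6 were called in this crossed comparison alone. They count among the 7 only through it, so its share is partly fixed by the selection. MEF1, an editing factor, had 1.26 FPKM in Col-0 light and 2.92 in 35S:miR396a light. EMB2730, a ribonuclease of the RNR family that acts in the organelles, had 14.2 and 6.77 FPKM. AT5G14580, a polynucleotide phosphorylase of mitochondria, was listed higher with light in Col-0, at 1.18 and 3.20 FPKM. In the dark 0 of the 7 were listed between genotypes, against 19.3% of all genes.

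**Figure D5:**
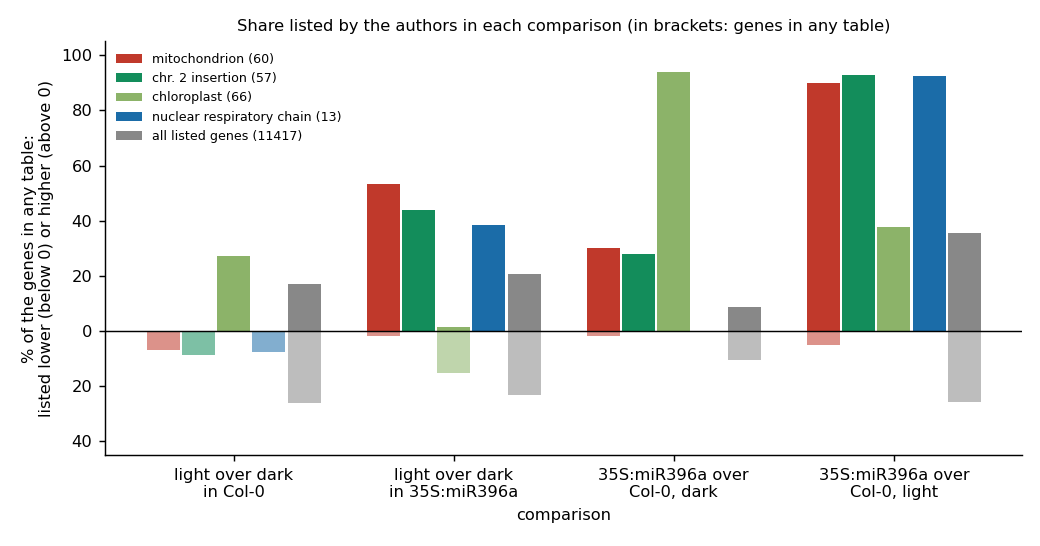
Share of the genes present in any table that the authors listed higher (above 0) or lower (below 0, paler) in each comparison, for the 60 members, the 57 genes of the chromosome 2 insertion, 66 chloroplast genes, 13 nuclear respiratory chain genes and all 11417 genes. The members and the insertion genes have like shares in each comparison, and the chloroplast genes are highest for genotype in the dark.

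For 1 member the level and the fold in the tables differed. ATMG00510 had 1.03, 0.750, 2.14 and 6.14 FPKM in Col-0 dark, Col-0 light, 35S:miR396a dark and 35S:miR396a light, on 637.3, 443.1, 1088.3 and 2135.6 pooled reads. Between the genotypes in the light, its ratio of FPKM was 1.81 times the authors' deposited fold, and between 35S:miR396a light and Col-0 dark 1.97 times. Of 179 listed values above 0 in both groups, these 2 were the only ones in which both measures were more than 1.5 times apart.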

How the data were processed

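RNA-seq libraries of 12 samples (BGISEQ-500) were mapped by the authors to TAIR10 with HISAT and Bowtie2, per the submitters' processing notes (no versions are named there). The 6 deposited tables hold the authors' group mean FPKM, the authors' log2 fold of the second group over the first, and DEGseq q-values and p-values, per the file headers. The design text names NOISeq with a probability above 0.8 instead. Only genes at 2-fold or more and a q-value below 0.001 are in the deposited tables, as checked on their values. In each of them the largest DEGseq q-value was smaller than the largest p-value, as with 0.000956 and 0.00425 for genotype in the light. Columns of other series numbered 0.

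Values were used as deposited (Python 3.11.15, pandas 2.3.3, numpy 2.4.6, scipy 1.17.1). A count of members is the number that the authors listed, and its background is the 11417 genes in any table. Medians used log2(FPKM + 1). Pooled reads were solved from fold and p-value with DEGseq's random-sampling variance, a 0 standing for 0.5 read. Of values under 60 reads, 76.8% to 80.8% came out whole within 0.05. The solver was also run on reads simulated with the same variance and 0.5-read rule. That run checks its algebra only, and not whether the deposited p-values follow this variance. Depth was estimated from reads and FPKM of transcripts of at least 1500 bases with at least 50 reads. The chromosome 2 insertion was located with BLAST+ 2.17.0 (at least 95% identity, 500 bases) in RefSeq TAIR10.1, whose mitochondrial sequence uses other identifiers; member names and copies came only from its notes on chromosome 2 genes, and coordinates are of that build. Read-sum ratios were divided by the ratio of depths, with exact Clopper-Pearson intervals (95%) that cover counting error only.

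No test between groups was run here, since values of single libraries were not used. The text names every member with a named product, the 5 unnamed members of highest mean FPKM, and per comparison the 3 of largest FPKM ratio with at least 1 FPKM; other members named were chosen after their values were seen. Nuclear lists follow the same rule of 3. Members and lists were chosen with earlier results of these data known.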

Additional observations from a re-analysis of the deposited data

How the results depend on the processing

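No paired analysis was possible because the deposited tables hold group means only; for the same reason leaving out a library was not run. The authors' calls carry counting error on pooled reads, most members had few reads, and a listed gene is a selected gene.

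Members listed were, for light in Col-0, light in 35S:miR396a, genotype in the dark and genotype in the light, 4, 33, 19 and 57. At 4-fold or more they were 0, 12, 5 and 55. With at least 1 FPKM in the larger group they were 0, 24, 10 and 34. Without the members the reference pairs with a nuclear copy they were 2, 20, 13 and 36. Of named products alone they were 1, 11, 6 and 13. The last 2 settings count over fewer genes by construction.

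The median log2 ratio was -0.06, 0.60, 0.30 and 0.97 in the same order. With a pseudocount of 0.1 it was -0.30, 1.26, 0.87 and 2.28, against -0.27, -0.10, -0.05 and 0.50 over all genes. With at least 1 FPKM in the larger group it was 0.00 after rounding, 0.68, 0.56 and 1.28. From the authors' deposited log2 fold of listed members alone it was -1.52, 1.55, 1.52 and 3.06. Without members paired with a copy it was -0.09, 0.62, 0.35 and 1.08, and for named products -0.05, 0.53, 0.12 and 0.62. No median changed sign, though that for light in Col-0 came to 0 under the filter.

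An alternative chosen after seeing the data summed the reads of member and copy and called 2-fold per depth. Among the pairs with sums, for light in Col-0 0 of 14 were higher by either measure and 2 lower by each, of which 1 was shared: ORF262 (0.504) was lost and atp8 (0.464) gained. For light in 35S:miR396a 7 of 11 were higher by each, 5 of them shared, with ccmFC (1.35) and rpl2 (1.30) lost and rpl5 (2) and ATMG00400 (2.01) gained. The number higher went from 2 to 7 of 11 for genotype in the dark and from 12 to 15 of 15 in the light. The number lower went from 1 to 0 for light in 35S:miR396a, from 1 to 0 for genotype in the dark and from 3 to 0 in the light. For genotype in the light every copy was already listed higher, so both changes there were largely fixed in advance.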
